A study of Danio rerio with 4 samples.

Results

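The retinoid (visual) cycle and the pigment of the eye were followed through 10 zebrafish genes, chosen by name from the gene table and matched to its RefSeq transcript accessions by symbol. The 10 genes were chosen with earlier results of these data known. Of these, 6 serve the retinoid cycle (*rpe65a*, *rlbp1a*, *rdh5*, *rlbp1b*, *rbp3* and *rbp4l*) and 4 serve melanin and the melanosome (*tyr*, *tyrp1b*, *dct* and *pmela*). Each had exactly 1 row among the 15171 rows of the table, and all 10 passed the filter on low counts that left 12786 genes for testing. RNA from pools of 10 whole larvae at 5 days (120 hours) post fertilization was sequenced after ribosomal RNA removal. The 2 mutant pools were homozygous for the hi272 allele of *uhrf1*, a gene whose protein helps copy DNA methylation to newly made strands, and the comparison asks how gene expression differs in them. The 2 sibling pools were phenotypically normal larvae of mixed +/+ and +/- genotype. Larvae were sorted into groups by phenotype, and the pools came from 2 clutches that the labels do not tie to a library. Growth and treatment conditions, including any pigment inhibitor, were not stated in the labels.

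Light turns the retinal chromophore of opsins from its cis to its trans form, and the retinoid cycle restores the cis form by passing retinoids between photoreceptors, the retinal pigment epithelium (RPE) and Müller glia. The RPE is a pigmented sheet behind the photoreceptors, and it shares its melanin enzymes with melanophores, the black pigment cells of the skin. Counts from whole larvae therefore cannot assign a melanin gene to either cell type, and in such bulk RNA fewer cells of a type and less RNA per cell cannot be told apart.

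Counts assigned to genes ranged from 2996676 to 9100665 per library, so that 1 count was worth between 0.110 and 0.334 CPM (counts relative to the library total) before scaling. All levels below are CPM after TMM scaling, and values of a group are given for library 1 and then library 2. Fold changes are mutant over sibling on the log2 scale with their standard error (SE). The targeted gene *uhrf1* stood at 21.4 and 46.8 CPM in the sibling pools against 33.3 and 24.1 CPM in the mutant pools. The groups overlapped (log2 change -0.21, SE 0.35, adjusted p = 0.765 in edgeR), so this gene cannot serve as a check on the labels, and "mutant" stands for the label alone.

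In the mutants 2 of the 6 retinoid cycle genes fell, *rbp3* and *rlbp1a*, each to about 0.4 of the sibling level, and no pigment gene passed the test in either direction. The threshold was an edgeR adjusted p of 0.05, which 8.37% of all genes tested passed, 3.79% as lower and 4.58% as higher. The other 4 retinoid cycle genes, among them the isomerase gene *rpe65a*, did not pass. The median log2 fold change was -0.39 over the 6 retinoid cycle genes and 0.25 over the 4 pigment genes, against 0.0036 over all genes. Without sibling 1, sibling 2, mutant 1 or mutant 2 in turn, the retinoid cycle median was -0.024, -0.75, -1.13 and -0.057, and the pigment median was 0.10, 0.51, 0.39 and 0.089. The difference between these groups of genes was described and not tested.

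**Figure D1:**
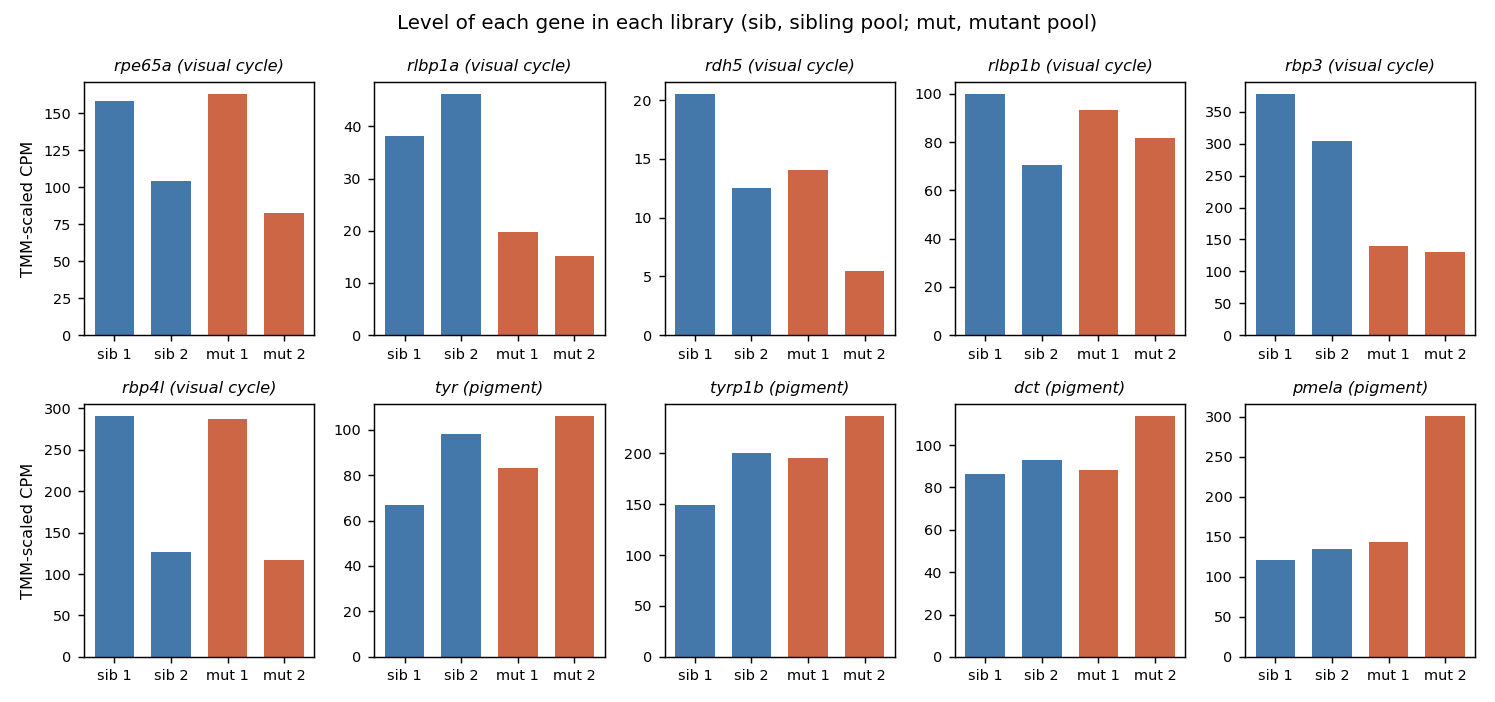
Level of each of the 10 genes in TMM-scaled CPM (vertical axes, each from 0) in the 2 sibling pools (blue) and the 2 mutant pools (orange), 1 bar per library. Both mutants lie below both siblings for *rlbp1a* and *rbp3*, both lie above for *pmela*, and the groups overlap for the other 7 genes.

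Of the genes that act in the RPE, *rpe65a* encodes the isomerohydrolase that turns all-trans retinyl esters into cis-retinol, the central step of the cycle. It had 158 and 105 CPM in the sibling pools against 163 and 82.7 CPM in the mutant pools. Mutant 1 lay just above sibling 1, mutant 2 was the lowest library, and the groups overlapped. Its log2 fold change was -0.09 (SE 0.32; adjusted p = 0.900 in edgeR), with a 95% interval of -0.81 to 0.63, which leaves a 2-fold change outside in either direction. Its sign depended on single libraries, being 0.24 without sibling 1 and 0.31 without mutant 2.

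*rlbp1a* encodes a cellular retinaldehyde-binding protein that in zebrafish is found in the RPE, where it carries cis-retinoids. It stood at 38.3 and 46.2 CPM in the sibling pools against 19.8 and 15.2 CPM in the mutant pools. Both mutants were below both siblings, as were 26.9% of all genes tested. The log2 fold change of *rlbp1a* was -1.24 (SE 0.25; adjusted p = 0.0132 in edgeR), with a 95% interval of -1.80 to -0.69. The call was lost without mutant 2, when the log2 fold change was -1.09 (edgeR adjusted p = 0.0875).

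*rdh5* encodes a dehydrogenase that oxidizes cis-retinol to cis-retinal in the RPE. It was the least abundant of the 10 by count, with 91 and 40 counts in siblings 1 and 2 and 128 and 19 counts in mutants 1 and 2. On the scaled level these were 20.5 and 12.6 CPM for siblings against 14.1 and 5.46 CPM for mutants. Mutant 2 was the lowest, while mutant 1 lay between the siblings. The log2 fold change of -0.69 (SE 0.43) did not pass (edgeR adjusted p = 0.372), and its 95% interval of -1.65 to 0.27 includes a 2-fold fall. Without mutant 1 it was -1.62 and without mutant 2 it was -0.25.

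*rlbp1b*, the paralog of *rlbp1a* found in Müller glia in zebrafish, gave 99.7 and 70.3 CPM in the sibling pools against 93.4 and 81.8 CPM in the mutant pools. Both mutants lay between the siblings. Its log2 fold change was 0.04 (SE 0.23; adjusted p = 0.938 in edgeR), with a 95% interval of -0.47 to 0.56, and it was -0.18 without sibling 2 and -0.073 without mutant 1. The count ratio of *rlbp1a* to *rlbp1b* within a library, which does not depend on scaling between libraries, was 0.384 and 0.656 in siblings 1 and 2 and 0.212 and 0.186 in mutants 1 and 2. The ratios did not overlap, and the mutants were lower by a mean of 1.34 on the log2 scale, or by 0.95 to 1.73 when single libraries were left out. An exact two-sided permutation test gave p = 0.333, the smallest that 2 libraries against 2 allow. Reads shared by the 2 paralogs could be split or dropped in the authors' counting, and identity between them was not measured.

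Of the genes whose products act between the cell layers, *rbp3* encodes the interphotoreceptor retinoid-binding protein, which carries retinoids through the matrix between photoreceptors and RPE. It was the most abundant of the 6 in siblings by CPM, a scale not corrected for transcript length, with 378 and 304 CPM in the sibling pools against 140 and 130 CPM in the mutant pools. The mutants lay close together and well below both siblings. Its log2 fold change was -1.34 (SE 0.24; adjusted p = 0.00805 in edgeR), with a 95% interval of -1.88 to -0.79. The call was lost without mutant 1 (log2 fold change -1.41, edgeR adjusted p = 0.0511) and without mutant 2 (log2 fold change -1.28, edgeR adjusted p = 0.110), while the size changed little.

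*rbp4l* encodes purpurin, a secreted retinol-binding protein made by photoreceptors. It had 291 and 126 CPM in the sibling pools against 288 and 117 CPM in the mutant pools. The level split by library number and not by genotype, with the 2 libraries numbered 1 well above those numbered 2. The log2 fold change was -0.04 (SE 0.45; adjusted p = 0.972 in edgeR), and its 95% interval ran from -1.03 to 0.95. It turned positive without sibling 1 (0.69), without mutant 2 (0.46) and when libraries were scaled by their totals alone (0.067).

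Ratios within a library set these genes against each other without any scaling. *rlbp1a* was 0.242 and 0.441 of *rpe65a* by count in siblings 1 and 2 and 0.121 and 0.184 in mutants 1 and 2. Both mutants were below both siblings in this ratio of 2 RPE genes. *rdh5* was 0.129 and 0.120 of *rpe65a* in siblings 1 and 2 and 0.0864 and 0.0660 in mutants 1 and 2, again without overlap. These ratios rest on few *rdh5* counts, with 40 in sibling 2 and 19 in mutant 2. *rbp3* was 1.30 and 2.41 times *rbp4l* in siblings 1 and 2 and 0.488 and 1.11 times in mutants 1 and 2, also without overlap. These 3 pairs were chosen after the values were seen and carry no test. How often other gene pairs lack overlap was not counted. By CPM alone both mutants were below both siblings for 26.9% of all genes tested, and relative to the summed pigment genes for 39.1%. Neither share is a background for the 3 ratios. *rlbp1a* and *rbp3* were already lower in both mutants by CPM alone.

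**Figure D2:**
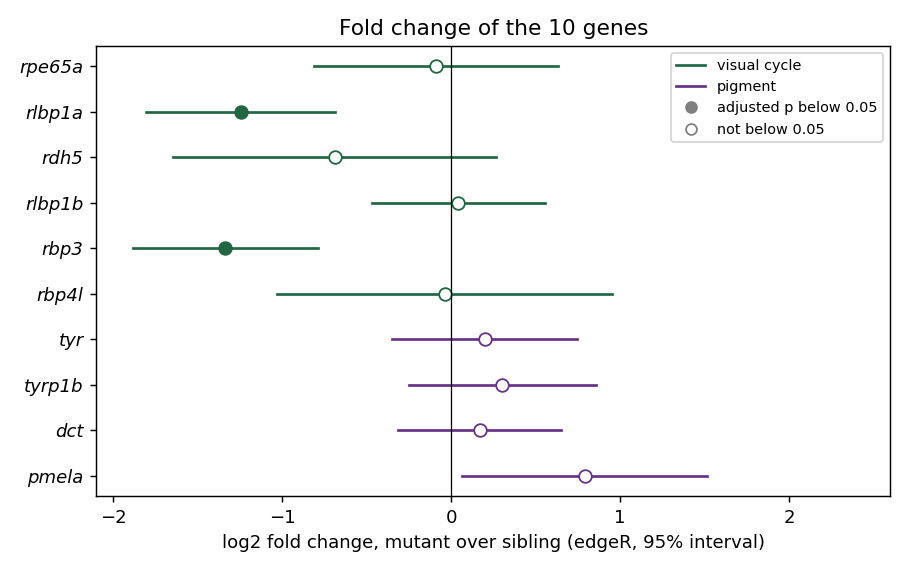
Log2 fold change of mutants over siblings (horizontal axis) for the 10 genes, with 95% intervals from edgeR, for retinoid cycle genes (green) and pigment genes (purple). Filled points have an adjusted p below 0.05: *rlbp1a* at -1.24 and *rbp3* at -1.34.

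Among the pigment genes, *tyr* encodes tyrosinase, which starts melanin synthesis from tyrosine. It gave 66.9 and 98.0 CPM in the sibling pools against 83.2 and 106 CPM in the mutant pools. Mutant 1 lay between the siblings, and the log2 fold change of *tyr* was 0.20 (SE 0.25; adjusted p = 0.680 in edgeR). Without sibling 1 it was -0.064.

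*tyrp1b* and *dct* encode the tyrosinase-related enzymes that act later in the pathway, *dct* as dopachrome tautomerase. *tyrp1b* stood at 149 and 201 CPM in the sibling pools against 195 and 237 CPM in the mutant pools (log2 change 0.30, SE 0.25, adjusted p = 0.508 in edgeR). *dct* stood at 86.4 and 92.9 CPM in the sibling pools against 88.5 and 114 CPM in the mutant pools (log2 change 0.17, SE 0.22, adjusted p = 0.690 in edgeR). For both genes mutant 1 lay between the siblings and mutant 2 was the highest library. The 95% intervals of -0.35 to 0.75 for *tyr*, -0.25 to 0.85 for *tyrp1b* and -0.31 to 0.65 for *dct* leave a 2-fold change outside in either direction.

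*pmela* encodes the protein of the fibrils on which melanin is laid down in the melanosome. It had 121 and 135 CPM in the sibling pools against 143 and 301 CPM in the mutant pools. Both mutants were above both siblings, as were 28.0% of all genes tested, but mutant 1 exceeded sibling 2 by little and mutant 2 stood apart. The log2 fold change of *pmela* was 0.79 (SE 0.33) and did not pass (edgeR adjusted p = 0.175), with a 95% interval of 0.065 to 1.52. Without mutant 1 it was 1.22 and passed (edgeR adjusted p = 0.0361), and without mutant 2 it was 0.16. Relative to *dct* in the same library, *pmela* was 1.40 and 1.45 in siblings 1 and 2 and 1.62 and 2.65 in mutants 1 and 2. The ratio was again highest in mutant 2. *tyr* and *tyrp1b* relative to *dct* overlapped between the groups.

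None of the 4 pigment genes passed with edgeR, DESeq2 or limma-voom, and 1, *pmela*, had an unadjusted edgeR p under 0.05. Of the 6 retinoid cycle genes, *rlbp1a* and *rbp3* had an unadjusted edgeR p under 0.05, and both passed with DESeq2 (adjusted p = 0.00665 and 1.83e-05) and limma-voom (adjusted p = 0.0162 and 0.00623).

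The direct comparison of the 2 groups of genes used counts summed within a library. The 6 retinoid cycle genes together gave 2.32 and 1.26 times the counts of the 4 pigment genes in siblings 1 and 2, and 1.41 and 0.571 times in mutants 1 and 2. The ratio was highest in sibling 1 and lowest in mutant 2, and mutant 1 lay above sibling 2, so the groups overlapped. The mean was lower in mutants by 0.93 on the log2 scale, and by 0.28 to 1.59 when single libraries were left out. Abundant genes weigh most in these sums, such as *rbp3* (1677 counts) and *rbp4l* (1291 counts) in sibling 1 and *pmela* (1048 counts) in mutant 2. Taking the median of the members' log2 CPM in place of the sum, the difference was -0.42.

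Gene by gene, *rlbp1a* and *rbp3* were lower relative to the summed pigment genes in both mutants than in both siblings, and the other 4 retinoid cycle genes overlapped. Of all genes tested, 39.1% were lower in this way and 10.2% higher, so 2 of 6 is near the background. *rlbp1a* was 0.0903 and 0.0877 of the summed pigment counts in siblings 1 and 2 and 0.0388 and 0.0201 in mutants 1 and 2. *rbp3* was 0.891 and 0.578 of them in siblings 1 and 2 and 0.275 and 0.171 in mutants 1 and 2. Of the 24 pairs of 1 retinoid cycle gene with 1 pigment gene, 8 had both mutants below both siblings, and these were the 8 that hold *rlbp1a* or *rbp3*.

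**Figure D3:**
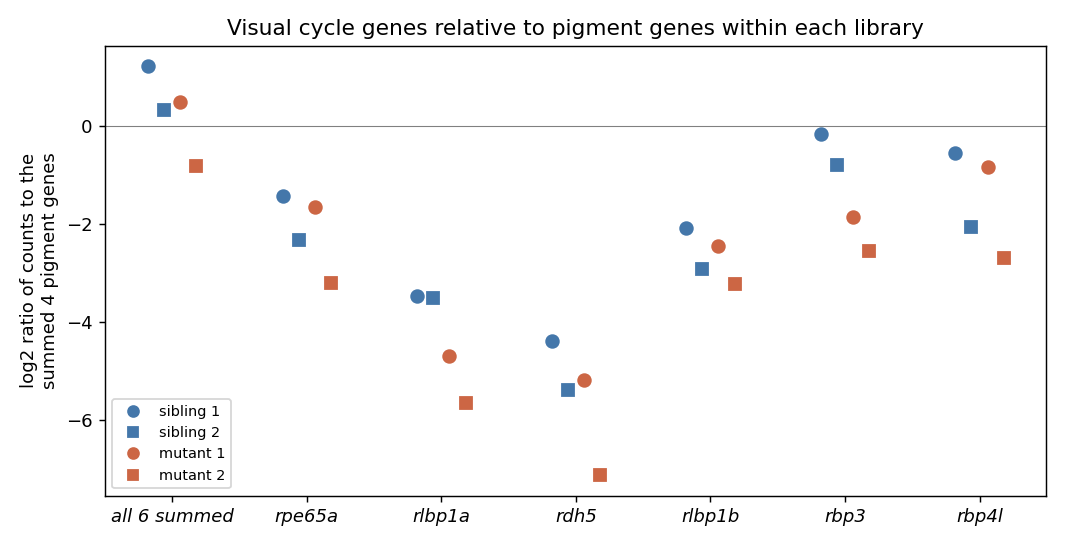
Log2 ratio of counts to the summed counts of the 4 pigment genes within each library (vertical axis) for the 6 retinoid cycle genes summed and for each alone, in siblings (blue) and mutants (orange), with circles for number 1 and squares for number 2. The mutant points lie below both sibling points for *rlbp1a* and *rbp3*, and the groups overlap for the sum and for the other 4 genes.

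In a list of other genes of retinoid transport and conversion, *ttr*, *scarb1* and *lrata* fell and none rose. The list left out *cyp27c1*, a gene of retinol conversion that rose and is described with the retinoic acid genes below. Of 38 further symbols, 30 were matched and 29 tested. With edgeR 3 fell and none rose, against 3.79% and 4.58% of all genes tested. At an unadjusted edgeR p under 0.05, 7 were lower and 0 higher. DESeq2 and limma-voom each called 2 lower and 0 higher. The median log2 fold change was -0.38, and both mutants were below both siblings for 16 of the 29, against 26.9% of all genes tested. Without sibling 2, 5 of the 29 were lower. *lrata* encodes lecithin retinol acyltransferase, which makes the retinyl esters that Rpe65 uses. It fell from sibling levels of 26.1 and 31.1 CPM to mutant levels of 15.6 and 12.3 CPM (log2 change -1.01, SE 0.27, adjusted p = 0.0464 in edgeR), a call lost on leaving out sibling 2 (edgeR adjusted p = 0.109), mutant 1 (0.0734) or mutant 2 (0.263), and with DESeq2 (adjusted p = 0.0722) and limma-voom (adjusted p = 0.0512).

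The 2 strongest calls of that list belong to genes that move retinoids and carotenoids around the body and that also act outside the eye. *ttr*, the plasma partner of retinol-binding protein and a liver product, fell from sibling levels of 87.6 and 42.1 CPM to mutant levels of 15.8 and 10.3 CPM (log2 change -2.27, SE 0.36, adjusted p = 0.00357 in edgeR). *scarb1*, a receptor for lipoproteins through which cells take up carotenoids, fell from sibling levels of 94.1 and 55.9 CPM to mutant levels of 28.2 and 17.5 CPM (log2 change -1.69, SE 0.31, adjusted p = 0.00820 in edgeR). Both calls held without each library in turn. *dhrs9*, a short-chain dehydrogenase gene, had a log2 fold change of -0.89 (SE 0.27) and did not pass (edgeR adjusted p = 0.0739). The carrier gene *rbp4* stood at 1750 and 1119 CPM in the sibling pools against 1260 and 1268 CPM in the mutant pools, with overlap (edgeR adjusted p = 0.811). The paralogs *rpe65b* and *rpe65c* had log2 fold changes of -0.40 (SE 0.24) and -0.41 (SE 0.33) and did not pass (edgeR adjusted p = 0.358 and 0.501). *rbp4*, *rpe65b* and *rpe65c* were named after their values were seen.

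A list of retinoic acid synthesis, breakdown, binding and receptor genes also held *cyp27c1*, a gene of retinol conversion. Of the 22 genes of this list tested, 1 rose and none fell, against 4.58% and 3.79% of all genes tested. The median was -0.05, and it ran from -0.0901 to -0.00703 when single libraries were left out. DESeq2 and limma-voom also called 1 higher and 0 lower, and edgeR had 2 higher and 1 lower at an unadjusted p under 0.05. The gene that rose was *cyp27c1*, whose enzyme in zebrafish desaturates retinol in the RPE to the form that shifts visual pigments toward longer wavelengths. It had 6.53 and 6.59 CPM in the sibling pools against 26.6 and 25.6 CPM in the mutant pools. The libraries within each group lay close together, and the log2 fold change was 1.99 (SE 0.29; adjusted p = 0.00235 in edgeR). It passed without each library in turn. *cyp26c1*, *rarab* and *aldh1a2*, next in that list by p, did not pass (edgeR adjusted p = 0.123, 0.138 and 0.274).

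Other melanosome and melanophore genes did not move one way. Of 30 symbols, 18 were matched and tested, and 2 rose and 1 fell. Of all genes tested, 4.58% rose and 3.79% fell, so 1 of 18 lower is near the background. The median was -0.09, which was -0.18 without sibling 1, -0.058 without mutant 1 and 0.03 without sibling 2. *rab32a*, a GTPase gene of melanosome traffic, rose from sibling levels of 7.65 and 7.54 CPM to mutant levels of 17.6 and 33.3 CPM (log2 change 1.71, SE 0.37, adjusted p = 0.0194 in edgeR). *hps5*, a gene of lysosome-related organelle assembly, rose from sibling levels of 18.2 and 10.4 CPM to mutant levels of 34.2 and 33.0 CPM (log2 change 1.21, SE 0.30, adjusted p = 0.0335 in edgeR). *trpm1a*, which encodes a channel of melanophores and retinal bipolar cells, fell from sibling levels of 35.8 and 25.1 CPM to mutant levels of 14.7 and 10.3 CPM (log2 change -1.25, SE 0.30, adjusted p = 0.0289 in edgeR). Its paralog *trpm1b* had a log2 fold change of -0.97 (SE 0.32) and did not pass (edgeR adjusted p = 0.0919), though it did without sibling 1 and without mutant 1 (edgeR adjusted p = 0.0323 and 0.0499). All 3 calls were lost without mutant 2 (edgeR adjusted p = 0.144 for *rab32a*, 0.0946 for *hps5* and 0.165 for *trpm1a*). That of *trpm1a* was also lost without sibling 1 (edgeR adjusted p = 0.103), and that of *hps5* without sibling 2 and without mutant 1 (edgeR adjusted p = 0.0841 and 0.0931).

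**Figure D4:**
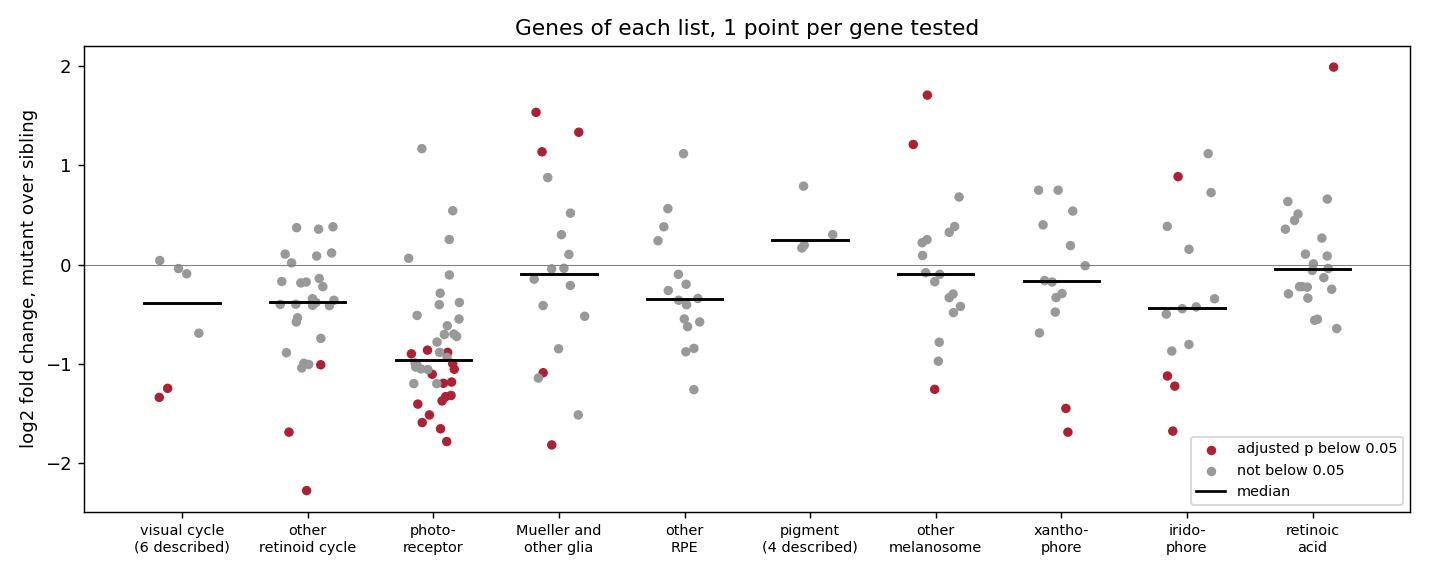
Log2 fold change of mutants over siblings (vertical axis) for each gene tested, by list, with the list's median as a black bar and genes with an adjusted p below 0.05 in red; the interphotoreceptor matrix list of 3 genes is not drawn. Medians run from -0.96 for photoreceptor genes to 0.25 for the 4 pigment genes.

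Many photoreceptor genes fell in the same libraries, and their part in these results was not tested. In whole larvae the genes of the photoreceptor list cannot be assigned to rods and cones alone. Of the 40 genes of this list tested, 16 (40%) fell and none rose, against 3.79% and 4.58% of all genes tested. Their median log2 fold change was -0.96. DESeq2 called 21 of them lower and limma-voom 17, with 0 higher, and at an unadjusted edgeR p under 0.05 there were 30 lower and 1 higher. Without mutant 1 there were 8 lower and without mutant 2 there were 7, and with mutant 2 left out 1 was higher. Their summed level was 11882 and 14116 CPM in the sibling pools against 6337 and 6836 CPM in the mutant pools. The 4 genes of lowest p in the list were *arr3a* (-1.65), *grk7a* (-1.59), *arr3b* (-1.78) and *rcvrna* (-1.33) on the log2 scale. *rbp3*, at -1.34, lay among these and below the median of the list. The cell type in which *rbp3* fell was not tested. *rbp4l*, a photoreceptor product, stood at -0.04. Neither cone genes nor rod genes all moved alike. The cone opsin gene *opn1mw2* (log2 fold change 1.17) had both mutants above both siblings, as had 28.0% of all genes tested. It did not pass (edgeR adjusted p = 0.0681). The cone opsin genes *opn1sw1*, *opn1sw2*, *opn1mw1* and *opn1lw2* were lower, from -1.20 to -0.78, and did not pass (edgeR adjusted p = 0.0851 to 0.149). The rhodopsin gene *rho* (log2 fold change 0.25) and the rod transducin gene *gnat1* (-0.10) overlapped between groups (edgeR adjusted p = 0.716 and 0.855). The rod genes *saga* (-1.40) and *pde6a* (-0.88) fell (edgeR adjusted p = 0.00451 and 0.0326). These rod genes and cone opsin genes were named after their values were seen.

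In the list of other RPE genes, 16 were tested. None of these 16 passed with the main edgeR fit, DESeq2 or limma-voom, and 4 were lower and 1 higher at an unadjusted edgeR p under 0.05. Their median was -0.35, and their summed level was 697 and 614 CPM in the sibling pools against 633 and 602 CPM in the mutant pools. The eye and RPE transcription factor genes *pax6b*, *rx2*, *otx2b* and *pax6a* had log2 fold changes of -0.84, -1.26, -0.88 and -0.62 (edgeR adjusted p = 0.0528, 0.0635, 0.0866 and 0.101). Several of these genes also act in the neural retina or brain. *stra6*, *rrh* and *rgra* were also counted among the other retinoid genes. *crx* was also in the photoreceptor list, *gpr143* in the melanosome list and *tfec* in the iridophore list. Listed RPE genes such as *best1* and *timp3* were not tested. *cyp27c1* and *lrata*, described above, were counted in other lists and not in this one. Both passed with edgeR, *cyp27c1* as higher and *lrata* as lower. The RPE list held 1 gene lower without sibling 1 and 1 without sibling 2.

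The glial list covers Müller cells and brain glia, and some of its genes, such as *apoeb* and *cahz*, are also expressed outside glia. Of its 18 genes tested, 3 rose and 2 fell, against 4.58% and 3.79% of all genes tested, with a median log2 fold change of -0.09. Without sibling 1, sibling 2, mutant 1 or mutant 2 in turn this median was 0.095, -0.36, -0.16 and -0.19. The glutamate transporter gene *slc1a3b* (log2 fold change 1.53, SE 0.26) and *s100b* (1.14, SE 0.20) rose, while *slc1a2a* (-1.81, SE 0.27) and the carbonic anhydrase gene *cahz* (-1.09, SE 0.24) fell. The third gene that rose was *apoeb*, an apolipoprotein E gene, named after its values were seen. It had 848 and 705 CPM in the sibling pools against 2151 and 1761 CPM in the mutant pools (log2 change 1.33, SE 0.35, adjusted p = 0.0458 in edgeR), a call that did not hold on leaving out sibling 2 (edgeR adjusted p = 0.0776), mutant 1 (0.227) or mutant 2 (0.237). The summed glial level was 3575 and 2886 CPM in the sibling pools against 4630 and 4274 CPM in the mutant pools. Without *apoeb*, a sum chosen after seeing the data, it was 2728 and 2181 CPM against 2479 and 2512 CPM, and the groups overlapped. The call of *cahz* was lost without sibling 2, mutant 1 or mutant 2 in turn (edgeR adjusted p = 0.0612, 0.0738 and 0.0875), and without mutant 2, 1 glial gene was lower. Of the interphotoreceptor matrix list only *crb2a*, *crb2b* and *crb1* were tested. None of them passed with edgeR, DESeq2 or limma-voom or had an unadjusted edgeR p under 0.05. Their median was 0.25, which was 0.13 without sibling 1. These are Crumbs cell polarity genes, and listed matrix genes such as *impg1a* and *impg2a* were not tested. The values therefore do not describe the matrix itself.

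The other neural crest pigment cells gave a comparison for the melanin genes. Of 14 iridophore genes tested, 3 fell and 1 rose, with a median log2 fold change of -0.43, which was -0.26 without sibling 1. The background for this count and the xanthophore count below is 3.79% of all genes tested lower and 4.58% higher. The purine phosphorylase genes *pnp4a* and *pnp4b* fell by 1.22 (SE 0.27) and by 1.12 (SE 0.23) on the log2 scale, and *fhl2b* fell by 1.67 (SE 0.25). Counts from whole larvae cannot assign these falls to iridophores. The purine synthesis gene *atic*, which most dividing cells use, rose by 0.89 (SE 0.21), a call lost with DESeq2 and without sibling 2, mutant 1 or mutant 2. *pnp4a* was not called without mutant 2 (edgeR adjusted p = 0.130) and *pnp4b* not without mutant 1 (edgeR adjusted p = 0.0872). Of 14 xanthophore genes, 2 fell and none rose with edgeR, with a median of -0.17 that was -0.27 without sibling 1, 0.07 without mutant 1 and -0.40 without mutant 2. The genes that fell were *scarb1*, counted above, and *gchfr* (-1.45, SE 0.37), the feedback regulator of pteridine synthesis, whose call was lost without sibling 1 and without mutant 2 (edgeR adjusted p = 0.213 and 0.180) and with limma-voom (adjusted p = 0.0568). At an unadjusted edgeR p under 0.05 there were 3 xanthophore genes lower and 1 higher, DESeq2 called 2 lower and limma-voom 1, each with 0 higher. Without sibling 1 or mutant 2, 1 xanthophore gene was lower, and without sibling 2, 1 was higher. *akr1b1.1* and the xanthophore oxidase gene *aox5* did not pass (log2 fold changes -0.69 and 0.75, edgeR adjusted p = 0.0713 and 0.165). Whether these pigment cell types differed from each other in their response was not tested.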

How the data were processed

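Values are raw counts per RefSeq transcript accession, as deposited by the authors, in 4 libraries of ribosome-depleted RNA. The submitters' processing notes name Bowtie2 2.1.0, HTSeq, DESeq2 and build GRCz10; no source used here gives the annotation, strand setting or handling of shared reads. If strand was ignored, overlapping and antisense genes cannot be told apart. Of 15171 rows, 14472 received a symbol from RefSeq (assembly GRCz12tu, for names alone).

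Groups and numbers come from sample titles, and the columns named WT hold the siblings. The main test was edgeR 4.0.16 under R 4.3.3 (filterByExpr, TMM, glmQLFit, glmQLFTest, no block) with Benjamini-Hochberg adjustment over 12786 genes. SE is the log2 fold change over the square root of F. P-values measure only the spread between these pools (biological coefficient of variation 20.0%). Replicates were not copies of each other (chi-square per degree of freedom 16.9 and 14.4).

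Counts were simulated for this comparison over 12786 genes, with 200 changed genes and 3 sets. On them edgeR recovered 40.3% of planted 2-fold changes, 95.0% of 4-fold and 100% of 8-fold ones, and 8.56% of its calls were false. In the real data 1070 genes were called, so these rates need not hold there.

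Alternatives were DESeq2 1.42.0, limma-voom (limma 3.58.1), other scalings and filters, a 2-fold criterion, summed rows, a replicate block and leaving out each library. Members, lists and tests were chosen with earlier results of these data known. Named genes are the members, *uhrf1* and up to 4 genes of lowest p per list; others are marked.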

Additional observations from a re-analysis of the deposited data

How the results depend on the processing

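The calls of *rlbp1a* and *rbp3* held with DESeq2, limma-voom, the 3 other scalings, both other filters, the 2-fold criterion and summed rows, and so did the absence of calls among the other 8 genes. Leaving out single libraries gave 0 to 2 retinoid cycle genes lower, 0 to 1 pigment genes higher, and 554 to 1523 genes called in all (319 to 796 higher, 235 to 727 lower). Both the 0 for retinoid cycle genes and the 554 came without mutant 2. *pmela* was called higher without mutant 1. The sign of 5 members turned on leaving out single libraries, with ranges of -0.69 to 0.31 for *rpe65a*, -0.18 to 0.31 for *rlbp1b*, -0.85 to 0.69 for *rbp4l*, -0.064 to 0.49 for *tyr* and -0.019 to 0.33 for *dct*. With library totals alone *rbp4l* was 0.067, and with at least 50 counts in 2 libraries the median of the other melanosome genes turned to 0.16. Replicate numbers are shared between groups, but the labels tie them to no clutch. Deviations of same-numbered libraries correlated across genes (0.24). With the replicate number as a block, 2536 genes were called (1368 higher, 1168 lower), 1 pigment gene was called higher (*pmela*, log2 fold change 0.70, edgeR adjusted p = 0.0161), the same 2 retinoid cycle genes were lower, and 28 photoreceptor genes were lower. In the list of other RPE genes the block called 4 lower and 1 higher. Upper quartile scaling called 1 gene of that list lower, and so did the fit without a count filter. The cause of these shifts was not tested. Depth limits *rdh5* most, with 19 counts in mutant 2.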

Other observations

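Retinoid cycle and pigment genes also differed by library number. Of the 6 retinoid cycle genes, 5 were higher in number 1 than in number 2 within both groups, against 29.0% of all genes tested, and *rlbp1a* was the exception. All 4 pigment genes were lower in number 1 than in number 2 within both groups, against 28.9% of all genes tested. The labels do not say what the number stands for. Number 1 was also the deeper library in both groups, with 4981004 against 2996676 counts in siblings and 9100665 against 3299449 in mutants. Number and depth therefore cannot be told apart here.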
